A study of Mus musculus with 12 samples.

Results

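Fat cells release proteins into the blood and into their surroundings, and 8 genes for such adipokines were followed here in 3T3-L1 adipocytes with raised or lowered Foxp1: Adipoq, Cfd, Retn, Retnla, Rarres2, Nampt, Lep and Rbp4. They were chosen by name and looked up through their Ensembl identifiers in the GRCm38 annotation, and all 8 have a row among the 28948 genes listed. Of these 8, 6 passed the filter on low values (at least 1 RPKM in at least 3 libraries) that left 11245 genes for testing. Lep and Rbp4 did not. RPKM is reads per kilobase of exon, scaled to the size of the library, so levels of different genes can be set side by side.

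The cells were of the mouse line 3T3-L1, a fibroblast-like line labelled as from Swiss mouse that turns into fat cells in culture. All 4 groups, of 3 libraries each, were differentiated alike. The cocktail was 10 µM troglitazone, an activator of the fat cell regulator PPARG, with 5 µg/ml insulin, 0.5 mM isobutylmethylxanthine and 1 µM dexamethasone. From day 4 the medium held insulin alone of these agents, and from day 6 it was plain growth medium. One group carried an empty vector and one overexpressed FOXP1 constitutively. Another carried a scrambled short hairpin RNA and the last a hairpin against Foxp1. The labels do not give the promoter or species of the construct, how it was brought in, whether a line was a pool or a clone, the day of harvest, or whether replicates were separate cultures. The p-values therefore measure the spread between these libraries, which may be technical.

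The libraries held 35252019 to 38450002 assigned reads. Foxp1 followed the labels in each group, with 1.80 RPKM on average with the empty vector, 6.56 with overexpression, 2.18 with the scrambled hairpin and 1.11 with the Foxp1 hairpin. Mature fat cell markers (12 genes such as Fabp4 and Plin1) summed to between 5011 and 9716 RPKM in each library, and none of the 12 was under 0.1 RPKM in all libraries of a group. Of 9 macrophage genes, 5 to 8 per group stayed under 0.1 RPKM in all 3 libraries, and the 6 endothelial genes summed to at most 0.588 RPKM. The replicate 3 library of overexpression stood apart from its group, with mitochondrial transcripts at 13.09% of reads against a group mean of 10.9% ± 1.9 (SD, n = 3).

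Some adipokine genes, such as Adipoq and Cfd, are switched on as precursor cells fill with lipid, largely under PPARG and the C/EBP factors. These serve as markers of a mature fat cell. Adiponectin acts on liver and muscle to raise insulin sensitivity, and resistin in the mouse acts against insulin. Adipsin starts the alternative complement pathway, chemerin attracts immune cells, and leptin reports the size of the fat stores to the brain. Foxp1 is a forkhead transcription factor that mostly lowers the activity of its targets.

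The 4 adipokine genes with the largest log2 differences between overexpression and empty vector are shown by the DNA just before their start sites, since they moved together in that comparison. The windows are from RefSeq on GRCm38.p6, plus strand: chr16:23146286-23146535 for Adipoq, chr10:79890603-79890852 for Cfd, chr8:3655520-3655769 for Retn and chr16:48842359-48842550 for Retnla. Those of Adipoq, Cfd and Retn end at the base before the RefSeq start. The Retnla window leaves out the 58 bases just before its RefSeq start, which GENCODE annotates as transcribed. Distances are counted from the RefSeq start. Capitals mark matches on either strand to a CCAAT box (CCAAT), a C/EBP word (TTNNGCAA) or a forkhead word (any of 8 words of the form TNTTTNN, in which the first N is G or A, the second A or G and the last C or T).
Adipoq: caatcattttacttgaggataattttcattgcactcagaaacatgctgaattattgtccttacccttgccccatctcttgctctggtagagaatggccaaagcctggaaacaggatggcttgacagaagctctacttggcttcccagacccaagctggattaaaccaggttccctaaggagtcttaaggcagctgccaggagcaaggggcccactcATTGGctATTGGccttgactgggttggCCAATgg
Cfd: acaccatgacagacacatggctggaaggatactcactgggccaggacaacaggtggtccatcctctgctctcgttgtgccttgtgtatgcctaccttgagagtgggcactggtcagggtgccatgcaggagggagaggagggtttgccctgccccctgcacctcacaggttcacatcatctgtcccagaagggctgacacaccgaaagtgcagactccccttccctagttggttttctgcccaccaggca
Retn: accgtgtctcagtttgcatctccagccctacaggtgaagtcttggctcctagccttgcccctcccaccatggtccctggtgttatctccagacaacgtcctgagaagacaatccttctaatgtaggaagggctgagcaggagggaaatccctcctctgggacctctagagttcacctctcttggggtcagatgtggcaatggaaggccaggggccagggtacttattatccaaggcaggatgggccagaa
Retnla: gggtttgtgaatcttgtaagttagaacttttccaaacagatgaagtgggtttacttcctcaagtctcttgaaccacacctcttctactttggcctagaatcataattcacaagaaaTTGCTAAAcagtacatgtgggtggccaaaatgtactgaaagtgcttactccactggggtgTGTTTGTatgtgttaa

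The Adipoq window held 3 CCAAT boxes, at 34 to 30, 27 to 23 and 7 to 3 bases before the start, the first pair of them on the minus strand. The Retnla window held 1 forkhead word, TGTTTGT at 74 to 68 bases before the RefSeq start, and 1 C/EBP word on the minus strand at 134 to 127. None of the marked matches overlapped another. Cfd and Retn held no match, which says only that these letters are absent from these 250 bases. Among 32536 RefSeq windows of 250 bases, 33.8% held a CCAAT box, 24.9% a forkhead word and 9.57% the C/EBP word, so such matches are common, and they describe the letters without showing a binding site. RefSeq windows were found for 7 of the 8 genes. The PPAR DR1 element in its consensus letters, held by 0.0338% of all windows, occurred in none of the 7 genes. Of the genes with no window printed, Lep held 1 C/EBP word. Rbp4 has 2 RefSeq windows, of which the first held 2 forkhead words and 1 CCAAT box and the second 1 C/EBP word.

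Overexpression of FOXP1 was set against the empty vector to ask how the RNA levels of these genes differ with a raised level of this factor. Protein and secretion were not measured. All 6 testable adipokines fell, over a range from a 5.61-fold lower mean for Cfd to a 1.38-fold lower mean for Rarres2. Over all 11245 genes, 20.3% were called lower and 51.4% were called in either direction, so a call alone is common. The libraries of the compared groups did not overlap for any of the 6, as for 57.5% of tested genes. The median log2 difference was -2.01 over the 6 adipokines and 0.04 over all tested genes, both on log2(RPKM + 1). Calls are from limma with a Benjamini-Hochberg adjusted p under 0.05 over all tested genes. Without overexpression replicate 3 all 6 were still called, with log2 differences from -2.38 for Cfd to -0.44 for Rarres2. In bulk RNA, fewer cells that make an adipokine and less of its RNA per cell cannot be told apart. The 8 genes summed to 4185 ± 43.9 RPKM in the empty vector group and to 945.7 ± 45.6 in the overexpression group, and their share of all reads was 0.571% ± 0.00467 and 0.152% ± 0.00492 (SD, n = 3 each). Most of each sum came from Adipoq (1948 and 437.5 RPKM on average) and Cfd (1649 and 293.9).

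**Figure D1:**
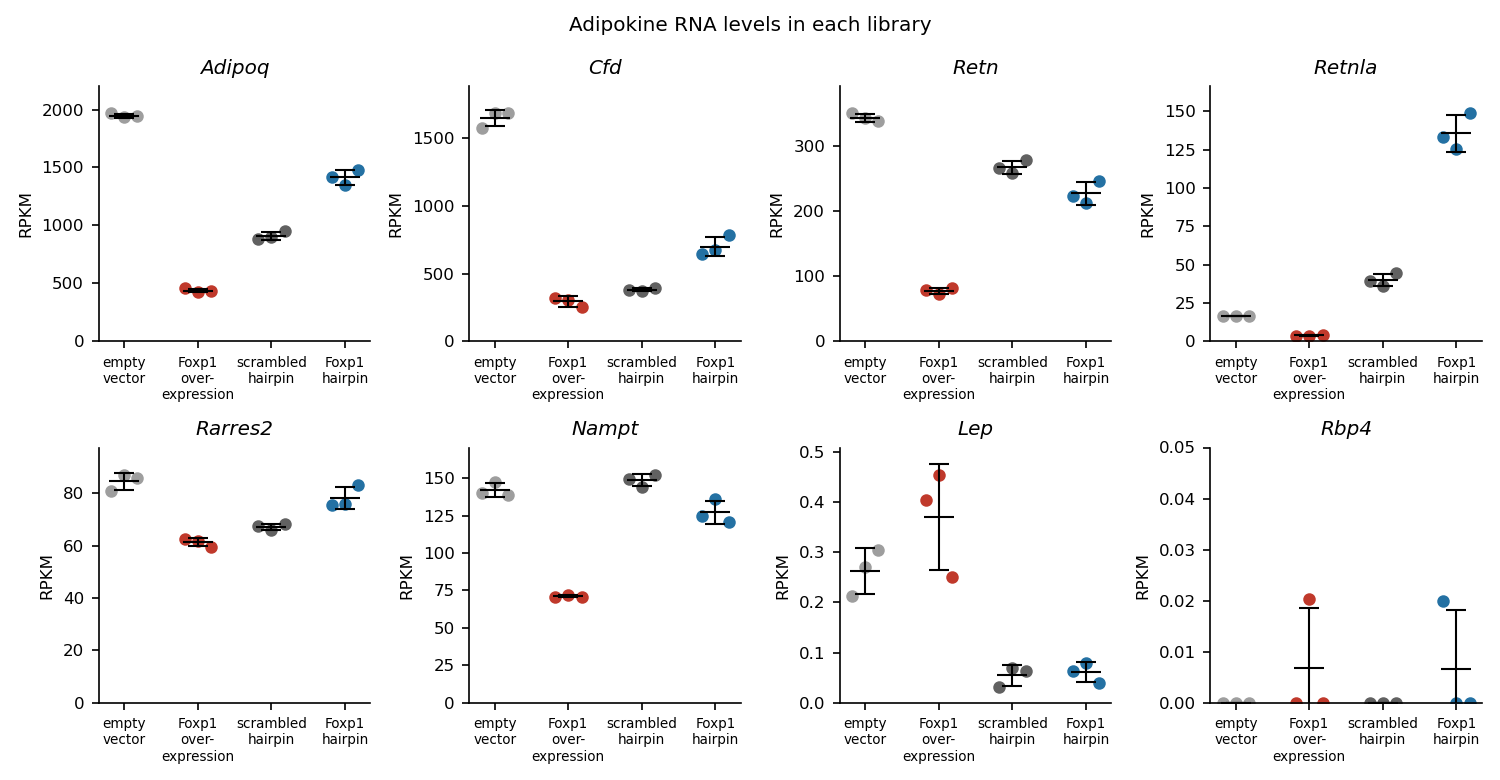
RPKM of each of the 8 adipokine genes (y axes, each starting at 0) in the 12 libraries by group (x axis); points are libraries, black bars the mean ± SD of 3. Overexpression is the lowest group for the 6 testable genes, Retnla is highest with the Foxp1 hairpin at 125 to 149 RPKM, and Rbp4 shows single reads in 2 libraries.

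Adiponectin, the insulin-sensitising hormone of fat cells, is encoded by Adipoq (ENSMUSG00000022878) at chr16:23146536-23158028 on the plus strand of GRCm38. It had 1967, 1934 and 1944 RPKM in the empty vector libraries and 455, 422 and 435 with overexpression. The scrambled hairpin libraries had 883, 899 and 949 RPKM and the Foxp1 hairpin libraries 1414, 1353 and 1481. No library of any group reached into the range of another group, in the order empty vector, Foxp1 hairpin, scrambled hairpin, overexpression. Among all listed genes Adipoq ranked 12 by mean RPKM in empty vector cells and 73 with overexpression. The log2 difference with overexpression was -2.15 (SE 0.0477, limma adjusted p = 6.85e-12), and 13 of the other tested genes had a more negative one. With the Foxp1 hairpin it was 0.64 (SE 0.0477, adjusted p = 1.04e-06), a mean 1.555 times that of the scrambled hairpin.

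Adipsin, or complement factor D, is the serine protease that activates the alternative complement pathway and is encoded by Cfd (ENSMUSG00000061780) at chr10:79890853-79892655, plus strand. Its levels were 1579, 1685 and 1684 RPKM in empty vector cells and 323, 308 and 251 with overexpression. With the scrambled hairpin they were 380.3, 369 and 392.1 RPKM, and with the Foxp1 hairpin 646, 671 and 784. The 4 groups did not overlap and stood in the same order as for Adipoq. Cfd had the most negative response to overexpression of the 8 genes, with a log2 difference of -2.49 (SE 0.0895, limma adjusted p = 4.02e-10) and 3 tested genes below it. Replicate 3 was the lowest overexpression library for Cfd, and without it the log2 difference was -2.38. The rise with the Foxp1 hairpin was 0.87 (SE 0.0895, adjusted p = 1.04e-05), or 1.84-fold by mean RPKM.

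Resistin, a cysteine-rich hormone that opposes insulin action in mice, is encoded by Retn (ENSMUSG00000012705) at chr8:3655770-3660110, plus strand. Retn stood at 351, 343 and 339 RPKM in empty vector cells and at 78.5, 72.4 and 82.0 with overexpression. It stood at 267, 259 and 279 RPKM with the scrambled hairpin and at 223, 213 and 247 with the Foxp1 hairpin. All 4 groups were apart, and here the Foxp1 hairpin lay below its control. The log2 difference was -2.14 with overexpression (SE 0.0586, limma adjusted p = 4.21e-11) and -0.24 with the Foxp1 hairpin (SE 0.0586, adjusted p = 0.00522). Retn was thus lower in both comparisons, as were 5.79% of all tested genes.

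Resistin-like alpha, also called RELM-alpha or FIZZ1, is a secreted relative of resistin best known from alternatively activated macrophages and present in fat tissue. Its gene Retnla (ENSMUSG00000061100) lies at chr16:48842551-48844461, plus strand. Retnla had 16.5, 16.7 and 16.3 RPKM in empty vector cells and 3.48, 3.73 and 4.13 with overexpression, from 345 to 384 and 77 to 91 reads per library. It had 39.3, 36.3 and 44.3 RPKM with the scrambled hairpin and 133, 125 and 149 with the Foxp1 hairpin. The groups did not overlap, and their order differed from that of the other testable adipokines: Foxp1 hairpin, scrambled hairpin, empty vector, overexpression. The log2 difference was -1.87 with overexpression (SE 0.0757, limma adjusted p = 1.12e-09), a 4.36-fold lower mean. With the Foxp1 hairpin it was 1.74 (SE 0.0757, adjusted p = 2.65e-08), a 3.39-fold higher mean, and 3 of the other tested genes had a larger rise. Among all listed genes Retnla ranked 2868 with the empty vector and 7483 with overexpression, and 1322 with the scrambled hairpin and 315 with the Foxp1 hairpin.

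The 9 listed macrophage genes summed to between 4.42 and 6.01 RPKM with the scrambled hairpin and between 3.66 and 4.64 with the Foxp1 hairpin, most of it from Cd68, a lysosomal protein also made by other cells. In the Foxp1 hairpin libraries 4 of the 9, the defining Ptprc, Adgre1, Itgam and Cd163, were at 0 in all 3. Cd68 had 5.21 RPKM on average with the scrambled hairpin and 3.97 with the Foxp1 hairpin, a difference that passed narrowly (limma adjusted p = 0.046) and did not pass under 9 other settings. Among these were leaving out Foxp1 hairpin replicate 1 or 3 (adjusted p = 0.161 and 0.0951) and scrambled hairpin replicate 2 or 3 (0.175 and 0.112). Lyz2 (0.02 and 0.0539 RPKM), Aif1 (0.04 and 0.0635) and Mrc1 (0.00686 and 0.00835) had slightly higher means with the Foxp1 hairpin, at levels too low to test. The part of macrophage genes in the Retnla difference was not tested. Eosinophil and lung epithelial markers, from other cell types known for resistin-like proteins, summed to at most 0.379 RPKM in any library.

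Chemerin, a chemoattractant released as an inactive precursor, is encoded by Rarres2 (ENSMUSG00000009281) at chr6:48569696-48572789, minus strand. Rarres2 had 81.0, 87.1 and 85.8 RPKM in empty vector cells and 62.6, 62.0 and 59.6 with overexpression. It had 67.6, 66.0 and 68.2 RPKM with the scrambled hairpin and 75.6, 76.1 and 83.2 with the Foxp1 hairpin. Both Foxp1 groups were apart from their own controls, while the ranges of the empty vector and Foxp1 hairpin groups overlapped. The log2 difference was -0.46 with overexpression (SE 0.044, limma adjusted p = 2.78e-06) and 0.21 with the Foxp1 hairpin (SE 0.044, adjusted p = 0.00164). These values are uncertain, because 892 of the 2656 exon bases annotated to Rarres2 are also exon of Lrrc61 on the other strand and the strand setting of the counting is not given in the sources used here. Lrrc61 itself had 9.33 ± 0.673 RPKM with the empty vector, 8.77 ± 0.46 with overexpression, 7.73 ± 0.394 with the scrambled hairpin and 5.94 ± 0.144 with the Foxp1 hairpin (SD, n = 3 each). The longest coding transcript of Rarres2 has 795 bases, so its RPKM over all annotated exons sets it lower beside other genes than a value per coding transcript would.

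Nampt makes nicotinamide mononucleotide, a precursor of NAD, inside cells and is also secreted, as visfatin. The gene (ENSMUSG00000020572) lies at chr12:32819545-32853349, plus strand. Nampt had 140.0, 148 and 139 RPKM in empty vector cells and 70.7, 72.0 and 70.7 with overexpression. It had 149, 144 and 152 RPKM with the scrambled hairpin and 125, 136 and 121 with the Foxp1 hairpin. Overexpression was apart from all other groups, the Foxp1 hairpin lay below both controls, and the controls overlapped each other. The log2 difference was -0.99 with overexpression (SE 0.0453, limma adjusted p = 3.04e-09), a mean 0.5 times that of the empty vector. With the Foxp1 hairpin it was -0.22 (SE 0.0453, adjusted p = 0.00142), so Nampt, like Retn, was lower in both comparisons.

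Leptin, the hormone of fat stores, is encoded by Lep at chr6:29060220-29073877, plus strand, and was close to the limit of measurement. The libraries held 27, 35 and 36 Lep reads with the empty vector, 50, 56 and 31 with overexpression, 4, 9 and 8 with the scrambled hairpin and 8, 10 and 5 with the Foxp1 hairpin. In RPKM the group means were 0.263 ± 0.0468, 0.37 ± 0.106, 0.0548 ± 0.0207 and 0.0607 ± 0.0199 (SD, n = 3 each). Each Foxp1 group overlapped its control, while no scrambled hairpin library reached the empty vector range. Counting error alone gives 95% Poisson intervals of 0.213 to 0.319 RPKM for the empty vector group and 0.3105 to 0.437 for overexpression. The scrambled hairpin group has 0.0339 to 0.0838 and the Foxp1 hairpin group 0.0385 to 0.0912. With the filter on low values dropped, the overexpression difference was 0.115 (limma adjusted p = 0.141). The knockdown difference had an adjusted p = 1 (limma), so neither was called. The scale of log2(RPKM + 1) understates a change at this level. The difference between the controls had adjusted p = 0.00218.

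Rbp4, which codes for the retinol carrier of the blood and lies at chr19:38116629-38125281 on the minus strand, was too low to measure. It had 1 read in overexpression replicate 2, 1 read in Foxp1 hairpin replicate 1 and 0 reads in the other libraries. A count of 0 over the 3 empty vector libraries allows up to 0.02 RPKM (3 reads, counting error only), and no fold is given.

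Lowering Foxp1 asks the reverse question, and the answer differed between adipokines. Of the 6 testable genes, 4 rose with the Foxp1 hairpin (Adipoq, Cfd, Retnla and Rarres2) and 2 fell (Retn and Nampt). Over all tested genes 49.7% were called, 18.7% higher and 31% lower. The compared groups did not overlap for any of the 6, as for 59.6% of tested genes. The median log2 difference was 0.43 over the 6 and -0.04 over all tested genes. The 4 genes that fell with overexpression and rose with knockdown belong to a class that holds 6% of tested genes (675). The summed level of the 8 went from 1815 ± 60.8 RPKM with the scrambled hairpin to 2685 ± 157 with the Foxp1 hairpin (SD, n = 3 each). Most of each sum came from Adipoq (910 and 1416 RPKM on average) and Cfd (380 and 700).

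**Figure D2:**
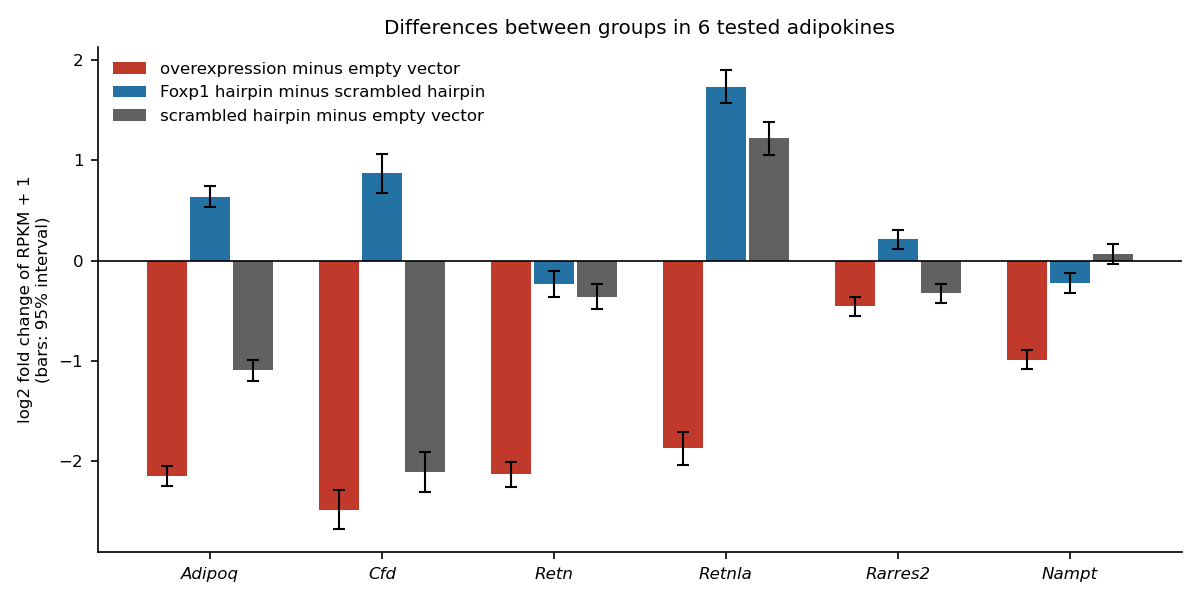
Log2 difference of RPKM + 1 (y axis) for the 6 tested adipokines (x axis) in 3 comparisons, with 95% intervals from limma as black bars, n = 3 libraries per group. Overexpression bars all point down, from -0.46 to -2.49, while Foxp1 hairpin bars run from -0.24 for Retn to 1.74 for Retnla.

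A direct test of the difference between the responses to overexpression and to the hairpin, which share no libraries, was passed by all 6 genes, each with the more negative response to overexpression. Among all tested genes 54.9% passed this test, 20.3% of all with a more negative response to overexpression. Retnla had a difference of -3.61 on the log2 scale (SE 0.107, limma adjusted p = 1.41e-10), with 3 tested genes below it. Cfd had -3.37 (adjusted p = 8.86e-10), Adipoq -2.79 (2.53e-11) and Retn -1.90 (2.95e-09). Nampt had -0.76 (8.5e-07) and Rarres2 -0.67 (2.1e-06), the smallest of the 6.

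**Figure D3:**
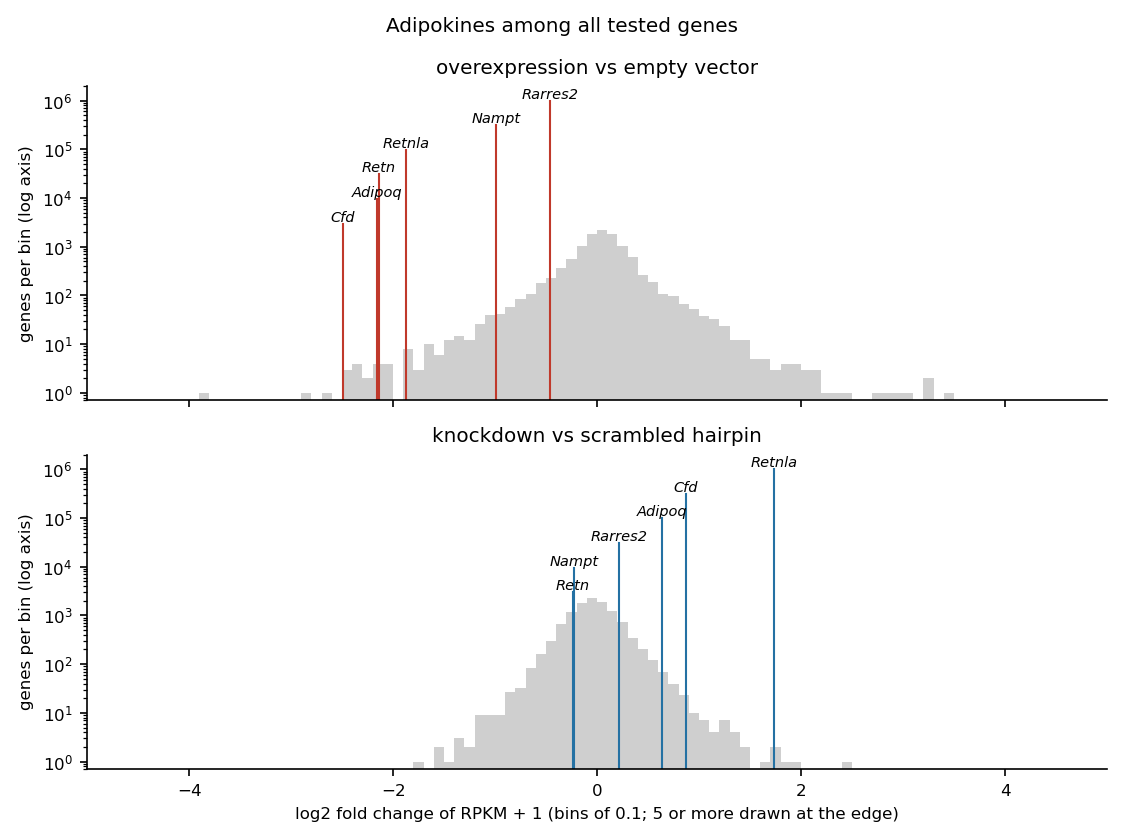
Number of tested genes (y axis, log scale) per bin of log2 difference (x axis, bins of 0.1) for overexpression against empty vector (top) and Foxp1 hairpin against scrambled hairpin (bottom), with vertical lines at the 6 adipokines; line heights carry no value. Cfd, Adipoq, Retn and Retnla lie in the far left tail above, and Retnla lies in the far right tail below.

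The controls also differed from each other, which bears on how levels in the 2 arms can be set side by side. Between scrambled hairpin and empty vector 71.8% of tested genes were called, 44.8% higher and 27% lower with the scrambled hairpin. Of the 6 adipokines, 4 were lower, 1 was higher and Nampt was not called. The control groups did not overlap for these 5, as for 78.9% of tested genes. Cfd was 4.33-fold lower (log2 difference -2.11, limma adjusted p = 8.82e-10) and Adipoq 2.14-fold lower (-1.10, adjusted p = 1.13e-09). Retn (-0.36, adjusted p = 0.000128) and Rarres2 (-0.33, adjusted p = 2.67e-05) were lower by less, and Retnla was 2.42-fold higher (1.22, adjusted p = 2.39e-08). Nampt differed by 0.06 (95% interval -0.03 to 0.16, adjusted p = 0.223), by 0.14 with values rescaled to TPM (adjusted p = 0.0309) and by -0.0199 with median-ratio scaling (adjusted p = 0.725). This comparison shares the empty vector libraries with the overexpression comparison and the scrambled hairpin libraries with the knockdown comparison, and the construct, and any difference in handling, cannot be told apart.

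Ratios within a library leave out any scaling of the library, and they separate the adipokines. Retnla relative to Retn was 0.0479 ± 0.00088 with the empty vector and 0.0487 ± 0.00383 with overexpression, and these ranges overlapped (exact permutation test, 2-sided, p = 0.8, n = 3 each). The same ratio was 0.149 ± 0.00935 with the scrambled hairpin and 0.596 ± 0.00701 with the Foxp1 hairpin, 4.00-fold higher without overlap. Retnla thus gained on Retn in each Foxp1 hairpin library. That difference had the smallest p that 3 libraries against 3 allow (exact permutation p = 0.1, adjusted p = 0.129 over 9 ratio tests), so no ratio can pass 0.05 here. Retn relative to Adipoq was 0.177 ± 0.0021 with the empty vector and 0.177 ± 0.00964 with overexpression, against 0.294 ± 0.00711 with the scrambled hairpin and 0.161 ± 0.00519 with the Foxp1 hairpin. It was lower in every Foxp1 hairpin library than in any scrambled hairpin library. Cfd relative to Adipoq was 0.847 ± 0.0383 with the empty vector and 0.672 ± 0.0818 with overexpression. It was 0.418 ± 0.0109 with the scrambled hairpin and 0.494 ± 0.0363 with the Foxp1 hairpin, without overlap in either pair.

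**Figure D4:**
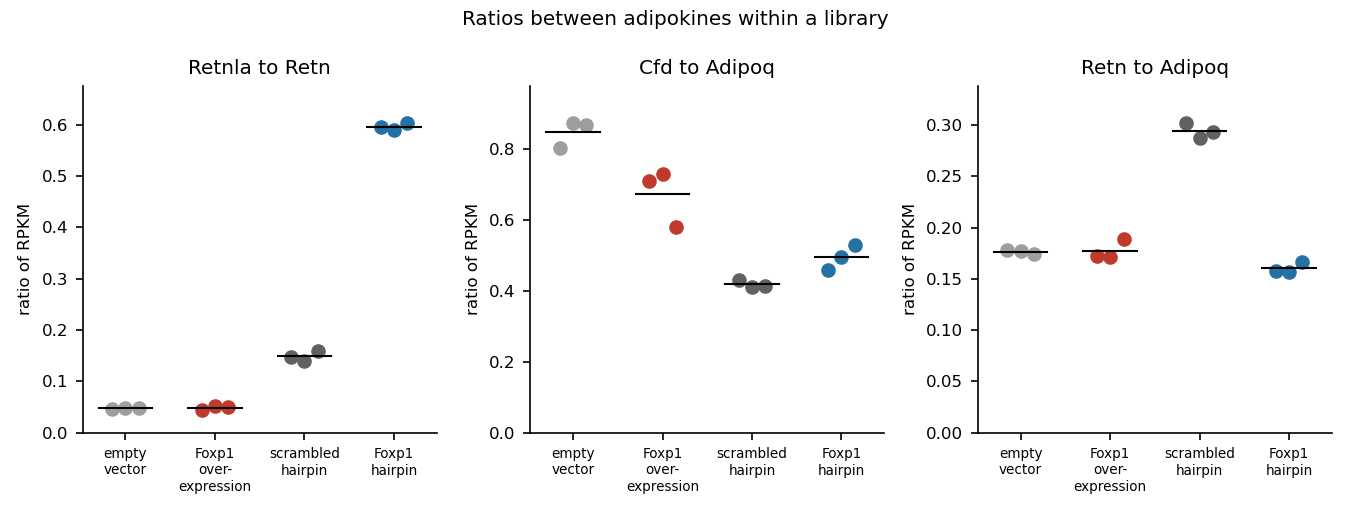
Ratio of RPKM between a pair of adipokines (y axes, from 0) in each library by group (x axis); points are libraries and black lines group means. Retnla to Retn stands near 0.048 in the empty vector and overexpression groups, near 0.149 with the scrambled hairpin and near 0.596 with the Foxp1 hairpin.

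Markers of the cells moved in the same comparisons. Of all tested genes, 31% were called higher and 20.3% lower with overexpression. With the Foxp1 hairpin 18.7% were called higher and 31% lower. Of 12 mature fat cell markers, 9 fell and 1 rose with overexpression (median log2 difference -0.45), and their summed level was 8300 to 8457 RPKM in empty vector cells and 5011 to 5220 with overexpression. With the Foxp1 hairpin 6 rose and 4 fell (4 to 7 rose under other scalings), with a median log2 difference of 0.12, and the sum was 9313 to 9716 RPKM against 7267 to 7453 with the scrambled hairpin. Most of that gap came from Cidec, a lipid droplet protein, with 3961 RPKM on average against 2294. Of 8 tested preadipocyte and fibroblast genes, 4 rose and 2 fell with overexpression, and the 9 listed summed to 441.6 to 472.9 RPKM and 548.5 to 574.4. With the Foxp1 hairpin 2 of the 8 rose and 3 fell, and the sums overlapped, at 481.4 to 530.5 and 449.2 to 496.1 RPKM. Cd34 was under 0.1 RPKM in every group, and no other gene of these lists was. Of 3 tested skeletal muscle genes, 2 rose and 1 fell with overexpression, and the 6 listed summed to 24.96 to 25.82 RPKM with the empty vector and 47.58 to 53.75 with overexpression. Most of this was the actin gene Acta1, at 13.0 and 39.7 RPKM on average (log2 difference 1.53), and the myoglobin gene Mb had 0.689 and 2.71 RPKM (1.122). Mb reached 1 RPKM only with overexpression, so it entered the test through the group where it is highest. Des fell from 11.6 to 8.41 RPKM (-0.42). The muscle gene Ckm was at 0 in all libraries of both groups. Myog (0.00587 and 0.0182 RPKM) and Tnnt3 (0.0919 and 0.28) had higher means with overexpression, at levels too low to test. In knockdown 1 of the 3 muscle genes rose and 2 fell, and the sums were 11.04 to 12.7 and 9.65 to 10.73 RPKM. The 6 endothelial genes, none testable, summed to 0.229 to 0.284 RPKM with the empty vector and 0.429 to 0.588 with overexpression, and to 0.291 to 0.333 and 0.266 to 0.332 in the knockdown arm. The part of these markers in the adipokine changes was not tested.

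The genes with a pattern over the 12 libraries most like that of each adipokine were found by the root mean square difference of centred log2(RPKM + 1) among 6660 genes. The 12 libraries fall into 4 groups, so likeness reflects mainly the group means. Adipoq was closest to Adh1, an alcohol dehydrogenase, at 0.101, then to the carboxylesterase Ces1d at 0.137 and to Tmem182 at 0.153. Retn was the 17th closest to Adipoq and Cfd the 28th. Cfd was closest to Lctl at 0.234, Tmem140 at 0.244 and Ccdc80, itself a secreted protein, at 0.301. Retn was closest to the carboxypeptidase Cpm at 0.172, Vsir at 0.191 and the kinase Wnk4 at 0.22.

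Retnla had no near match. Its closest genes were Ces1f at 0.796, Ang5 at 0.838 and Prl2c2 at 0.881, against a spread of its own of 1.77 on the same scale. Prl2c2 belongs to a family of near-identical copies, so its counts are uncertain. Rarres2 was closest to the lipid droplet protein Plin1 at 0.0434, then to Atpaf2 at 0.0529 and Acad9 at 0.061, beside a spread of 0.183. Nampt was closest to the interferon gamma receptor gene Ifngr1 at 0.0894, Pls3 at 0.0937 and the kinase Mknk2 at 0.113. These are descriptions, with no test.

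Receptors and binding partners of adipokines were measured in the same cells. Of 10 listed genes 5 were testable. With overexpression 4 rose and 1 fell, where 31% of all tested genes were called higher and 20.3% lower. In knockdown 0 rose and 3 fell, a called share near the 49.7% of all tested genes. The adiponectin receptor Adipor2 rose from 73.7 ± 1.83 to 157.7 ± 1.3 RPKM with overexpression (log2 difference 1.09, limma adjusted p = 1.51e-10) and fell from 117 ± 3.52 to 99.4 ± 1.7 with the Foxp1 hairpin (-0.23, adjusted p = 0.000151). Cdh13, or T-cadherin, which binds adiponectin at the cell surface, rose by 0.75 and fell by 0.22 on the log2 scale in these comparisons. Adipor1 fell with the Foxp1 hairpin (-0.20, adjusted p = 0.000186). Its call with overexpression (0.09, adjusted p = 0.0266) was lost under 7 other settings, among them median-ratio scaling (0.242), TPM (0.422), without overexpression replicate 1 (0.0584) and without empty vector replicate 1, 2 or 3 (0.0744, 0.0739 and 0.0571). The pattern recognition receptor Tlr4, to which resistin can bind, fell with overexpression from 2.86 ± 0.0411 to 1.67 ± 0.0235 RPKM (-0.53, adjusted p = 5.31e-07). The chemerin receptor gene Cmklr1 and the leptin receptor gene Lepr were too low to test, at no more than 0.125 and 0.0695 RPKM in any group mean.

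Adiponectin is secreted as multimers whose assembly needs oxidation, disulfide exchange and hydroxylation of its collagen domain. All 10 listed genes for these steps were testable. With overexpression 5 rose and 2 fell, where 31% of all tested genes were called higher and 20.3% lower. Under the Foxp1 hairpin 0 rose and 7 fell, where 31% of all tested genes were called lower. The prolyl hydroxylase subunit genes P4ha1 (14.4 ± 0.666 to 27.96 ± 1.81 RPKM, log2 difference 0.91) and P4ha2 (5.996 ± 0.0781 to 11.6 ± 0.955, 0.85) rose with overexpression, as did the lysyl hydroxylase gene Plod2 (0.58). P4ha1 and P4ha2 both fell by 0.30 with the Foxp1 hairpin, from 65.3 ± 1.18 to 52.7 ± 1.73 RPKM and from 25.8 ± 1.3 to 20.9 ± 0.771. P4ha1, P4ha2 and Plod2 were also higher with the scrambled hairpin than with the empty vector, by 2.11, 1.94 and 1.94. Gstk1, or DsbA-L, which promotes adiponectin multimers, fell by 0.73 with overexpression and by 0.25 with the Foxp1 hairpin.

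Adipsin acts on the complex of C3 with factor B. Of 9 genes of the alternative complement pathway 4 were testable, with 1 risen and 1 fallen in overexpression, a called share near the 51.4% of all tested genes. Under the Foxp1 hairpin 3 rose and 0 fell, where 18.7% of all tested genes were called higher. C3 itself fell from 1138 ± 31.8 to 621 ± 61.5 RPKM with overexpression (log2 difference -0.88, limma adjusted p = 2.48e-06), and it had 555 ± 21.7 and 522 ± 60.1 RPKM in the knockdown arm (-0.09, adjusted p = 0.38). The surface inhibitor Cd59a rose by 0.27 with the Foxp1 hairpin, and the lectin pathway protease Masp1 rose by 0.27 with overexpression and 0.18 with the Foxp1 hairpin. Masp1 averaged 0.771 RPKM with the empty vector, 1.13 with overexpression, 0.351 with the scrambled hairpin and 0.532 with the Foxp1 hairpin. It passed the filter on low values only through the overexpression libraries, so its place in both counts rests on the group where it is highest. Properdin (Cfp), which stabilises the convertase, rose by 0.33 with the Foxp1 hairpin (adjusted p = 0.0369), a call lost when any of 4 libraries was left out: Foxp1 hairpin replicate 2 or 3 (adjusted p = 0.0718 and 0.16) and scrambled hairpin replicate 1 or 3 (0.124 and 0.101). It was also lost in TPM (0.0657) and without the filter on low values (0.119). The factor B gene Cfb was at no more than 0.106 RPKM in any group mean.

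Nampt opens the salvage route to NAD, and 9 of 13 other genes of NAD synthesis and use were testable. With overexpression 3 rose and 2 fell, a called share close to the 51.4% of all tested genes. In knockdown 1 rose and 5 fell, where 49.7% of all tested genes were called. Nnmt, which methylates nicotinamide and so takes it from that route, fell from 28.9 ± 0.386 to 13.99 ± 0.929 RPKM with overexpression (log2 difference -0.996, limma adjusted p = 2.9e-07) and rose from 12.2 ± 0.499 to 19.0 ± 2.46 with the Foxp1 hairpin (0.59, adjusted p = 4.98e-05). Naprt, the entry enzyme from nicotinic acid, moved the other way, by 0.47 and -0.50. Nmnat2, which completes NAD, had 0.54 and -0.22, and the mitochondrial NAD-dependent deacetylase Sirt3 0.35 and -0.44, all past the threshold.

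Known regulators of adipokine genes moved both ways with overexpression. Of 11 listed and tested genes, 6 fell and 4 rose, against 20.3% and 31% of all tested genes. In the knockdown arm 8 fell and 0 rose, against 31% and 18.7%. The C/EBP genes split with overexpression. Cebpb rose from 105 ± 3.58 to 181 ± 42.4 RPKM (log2 difference 0.76) and Cebpd from 18.9 ± 0.506 to 26.9 ± 4.7 (0.48). Both spread widely over the overexpression libraries. Cebpa, a driver of late fat cell genes, went from 146 ± 2.19 to 101 ± 5.44 RPKM with overexpression (log2 difference -0.54, limma adjusted p = 5.69e-07) and from 138 ± 3.08 to 116 ± 4.15 with the Foxp1 hairpin (-0.24, adjusted p = 0.000646). Rxra, the partner of PPARG on DNA, fell by 0.39 and 0.33. Pparg itself fell from 122.5 ± 0.943 to 98.8 ± 3.44 RPKM with overexpression (-0.31, limma adjusted p = 2.69e-05). With the Foxp1 hairpin it went from 88.7 ± 2.52 to 82.1 ± 2.68 RPKM (-0.11, limma adjusted p = 0.0302), a call lost with median-ratio scaling (0.121). The forkhead gene Foxo1 rose from 10.8 ± 0.154 to 22.2 ± 0.883 RPKM with overexpression (0.98, adjusted p = 1.16e-09) and fell by 0.68 with the Foxp1 hairpin. Ebf1 fell by 0.58 with overexpression and had a difference of 0.07 with the Foxp1 hairpin (adjusted p = 0.164).

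**Figure D5:**
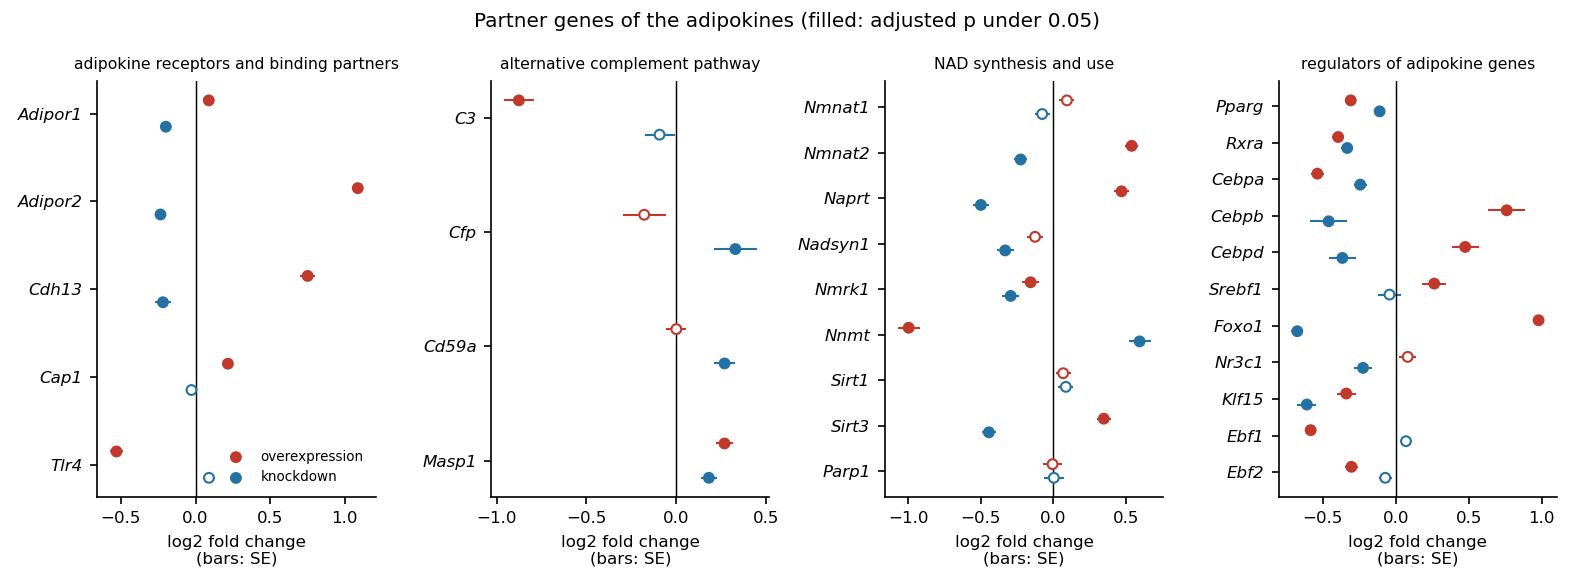
Log2 differences of RPKM + 1 (x axes, with SE as bars) for the tested genes (y axes) of 4 lists, overexpression against empty vector in red and Foxp1 hairpin against scrambled hairpin in blue; filled points passed an adjusted p of 0.05. Adipor2 and Foxo1 lie furthest to the right with overexpression, at 1.09 and 0.98, and Nnmt furthest to the left at -0.996.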

How the data were processed

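RNA levels per gene were measured in 12 libraries. The authors deposited RPKM divided by 1000, shown by sums of 311.82 to 357.68 per library, and values were multiplied by 1000 here. Per the submitters' processing notes, HISAT2 2.1.0, featureCounts and Subread 1.5.3 were used on mm10. The strand setting and the treatment of reads that match several places are not given in the sources used here, so genes with close copies or overlaps can be miscounted. Symbols and exon lengths came from GENCODE M21 for 28896 of 28948 identifiers. Exon length times RPKM gave whole reads within 0.05 for 98.83% to 98.93% of values, which yields depths and reads per gene; read intervals and floors cover counting error only.

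Genes reaching 1 RPKM in 3 or more libraries were tested as log2(RPKM + 1), a scale that understates the change of low genes, with limma 3.58.1 in R 4.3.3 (lmFit, eBayes with trend, 1 model of 4 groups), tested on simulated data, with Benjamini-Hochberg adjustment over all genes. Ratios within a library were compared by exact permutation. Values are mean ± SD over 3 libraries.

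The adipokines and all gene lists were chosen with earlier results of these data known. Genes were named by rule: the 8 adipokines, Foxp1, up to 4 genes per list with the smallest adjusted p over the overexpression and knockdown comparisons, marker genes needed for a check, and the 3 genes most alike in pattern with at least 5 RPKM on average. Cmklr1, Lepr, Cfb, Cebpb, Cebpd and Pparg were named after their values were seen. A gene that the rule picked is not reported here. Alternatives were other pseudocounts (0.1 and 0.5), filters, scalings, variance models, voom on recovered reads, the libraries compared alone, a replicate block and leaving out each library. Figures were drawn with matplotlib 3.10.9, and tables and permutation tests were made with scipy 1.17.1 and pandas 2.3.3 in Python 3.11.15.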

Additional observations from a re-analysis of the deposited data

How the results depend on the processing

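Over 24 alternative settings, 460 of 462 adipokine values kept their direction and their side of the threshold. Both exceptions are Nampt between the controls, at 0.14 with values rescaled to TPM and -0.0199 with median-ratio scaling, against 0.06. All 6 testable adipokines were called in both Foxp1 comparisons under every setting run. Leaving out 1 library gave log2 differences of -2.56 to -2.38 for Cfd with overexpression, 1.67 to 1.81 for Retnla and -0.30 to -0.19 for Retn with the Foxp1 hairpin. The calls of Retn and Nampt with the Foxp1 hairpin are small, with adjusted p up to 0.0257 and 0.00802 over the settings. Genes called when 1 library was left out numbered 4965 to 6221 for overexpression (5775 with all), 4758 to 5350 for knockdown (5587), 5696 to 6678 for the difference of responses (6173) and 7542 to 7632 between the controls (8070).

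The split of all called genes moved with the scaling, from 3490 higher and 2285 lower to 2437 and 2580 for overexpression in TPM. For the difference of responses it moved from 3888 and 2285 to 3149 and 2909 with median-ratio scaling and 3069 and 2989 with quantile normalization, and between the controls from 5037 and 3033 to 4045 and 3893 with quantile normalization. Same-numbered libraries did not deviate together (correlations of -0.01, 0.12 and 0.08 for overexpression and -0.07, 0.05 and -0.06 for knockdown), so the numbers are not taken as pairs. With a replicate block 5888 genes were called for overexpression, 5709 for knockdown, 6328 for the difference and 8164 between the controls, and no adipokine call changed. Depth limits Lep and Rbp4, and 3 libraries per group limit the ratio tests.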

Other observations

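RNA levels of genes for other secreted products of fat cells moved in both directions. Of 20 listed, 15 were testable, and with overexpression 9 rose and 3 fell, while with the Foxp1 hairpin 3 rose and 8 fell. Of all tested genes, 31% were called higher and 20.3% lower with overexpression, and 18.7% and 31% with the Foxp1 hairpin. Lcn2, or lipocalin 2, which binds bacterial iron carriers, rose from 82.7 ± 2.99 to 709 ± 44.1 RPKM with overexpression (SD, n = 3 each; log2 difference 3.08, limma adjusted p = 4.78e-13) and fell from 187 ± 8.73 to 120.5 ± 0.478 with the Foxp1 hairpin (-0.63, adjusted p = 1.52e-06). Fgf21 (1.05) and apelin (Apln, 0.68) rose with overexpression, and the fall of Apln with the Foxp1 hairpin (-0.19, adjusted p = 0.0137) was lost with median-ratio scaling (0.0785), with quantile normalization (0.0682), without Foxp1 hairpin replicate 1 (0.0511) and without Foxp1 hairpin replicate 3 (0.0538).

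Around Rbp4, 5 of 13 listed retinoid genes were testable, with 3 risen and 1 fallen in overexpression and 0 risen and 4 fallen with the Foxp1 hairpin. Over all tested genes, 31% were called higher and 20.3% lower with overexpression, and 18.7% and 31% with the Foxp1 hairpin. The retinaldehyde reductase gene Dhrs3 fell by 0.60 with overexpression, and Aldh1a1, which makes retinoic acid, and the receptor gene Rarg fell by 0.42 and 0.50 with the Foxp1 hairpin. Of 9 C1q and TNF related proteins looked up, relatives of adiponectin, 2 were testable. Both rose with overexpression: C1qtnf12 from 7.82 ± 0.449 to 14.3 ± 1.97 RPKM and C1qtnf6 from 17.4 ± 0.467 to 23.2 ± 2.46. Neither passed with the Foxp1 hairpin (limma adjusted p = 0.402 and 0.0633; for C1qtnf6 it was 0.0302 without Foxp1 hairpin replicate 2 and 0.0437 to 0.0495 under 4 other settings).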
